A study of Mus musculus with 6 samples.

Results

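The mitochondrial ribosomal protein genes were examined as the rows of the expression table whose symbol begins with Mrpl or Mrps followed by a number, without names that contain -ps, which mark pseudogenes. This rule found 78 of 12153 genes, of which 49 carry large subunit names (Mrpl) and 29 carry small subunit names (Mrps). All 78 protein-coding genes of this name pattern in the GENCODE M21 annotation had a row. RNA-Seq was performed on 6 libraries of Tregs sorted from B16.F10 melanoma tumors at day 15 after inoculation. The 3 control libraries came from mice labeled Nr3c1-flox, and the 3 Nr3c1-Foxp3Cre libraries from mice labeled Nr3c1-flox with the Foxp3-YFP/Cre allele, so both groups carry the floxed gene for the glucocorticoid receptor (GR) and Cre under the Foxp3 promoter deletes it in Foxp3-expressing cells. The labels describe a sort on CD4 and CD25 and the study's methods a sort on Foxp3-YFP, which the control genotype as labeled does not carry. The study used mice of both sexes, and the sex, age and number of animals behind each library are not given in the sources used here, so p-values measure only the spread between these libraries, which may be technical.

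The mitochondrial ribosome translates the few proteins that mitochondrial DNA (mtDNA) encodes, all of them subunits of the oxidative phosphorylation complexes. Its ribosomal RNAs come from mtDNA, whereas all its proteins are encoded in the nucleus, made in the cytosol and imported, so each particle needs both genomes. The small subunit binds the messenger RNA and decodes it, and the large subunit joins the amino acids. Names follow history rather than structure for a few members. Mrps30 and Mrps18a are now placed in the large subunit, and Mrps36 has been found as a component of the 2-oxoglutarate dehydrogenase complex.

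All values are log2 CPM, quantile normalized by the authors, and differences are Nr3c1-Foxp3Cre minus control on that log2 scale. Read depth is unknown. The deleted gene was checked first. Nr3c1 was at 7.15, 7.59 and 6.88 in the control libraries and at 6.14, 5.45 and 5.90 in the Nr3c1-Foxp3Cre libraries, a difference of -1.38 (standard error 0.21, limma adjusted p = 0.120). Tsc22d3, a gene induced by glucocorticoids, differed by -1.56 (standard error 0.16, limma adjusted p = 0.0342). This call was lost with the replicate number as a block (limma adjusted p = 0.137), without a trend (0.221) and in 4 of the 6 fits that each left out a library, while the difference stayed between -1.68 and -1.37. All 7 Treg markers examined had values, with Foxp3 between 3.39 and 4.47 and Cd4 between 8.69 and 9.32. The 7 melanoma markers were also expressed, and their mean ran from 7.30 to 8.68 over the libraries with overlapping groups. The highest of them, Dct, ran from 10.6 to 12.2, above the highest value of a Treg marker, 10.0 for Ctla4. The lowest of them, Mitf, ran from 3.43 to 4.84. Of the remaining markers, all 7 macrophage, all 4 fibroblast and 1 of 2 CD8 T cell genes had values, and none of 3 B cell and 2 NK cell genes did. The fibroblast mean was lower in every Nr3c1-Foxp3Cre library (2.93 to 3.66) than in every control library (4.46 to 5.54). The value of 2.93, in Nr3c1-Foxp3Cre replicate 2, includes Pdgfra at -3.96. Of the 4 genes, 3 were lower with an unadjusted p under 0.05 by limma, against 1.65% of all genes. Without overlap 2 were lower, against 3.73% of all genes, and 0 had an adjusted p under 0.05. The part of fibroblast RNA in the results was not tested.

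The 78 genes lie on 17 chromosomes of mm10, with at most 11 on a chromosome. Head-to-head gene pairs were common among them: 18 members, or 23.1%, start within 1000 bases of the start of a protein-coding gene on the opposite strand that runs the other way, against 10.7% of the 11440 protein-coding genes in the table. Mrps12 and Sars2, a mitochondrial tRNA synthetase, are such a pair, with 172 bases between their starts. Pairs that overlap at their starts, such as Mrps11 and Mrpl46, were left out of both shares. For 69 members RefSeq (GRCm38.p6) gives a promoter window of 250 bases before and 50 after the start. The ETS core CCGGAAG, bound by GABP among other factors, was found on either strand in 24 of the 69 windows, or 34.8%, against 19.6% of the windows of 9334 genes in the table. The YY1 core AAGATGGC was found in 12, or 17.4%, against 4.92%. The palindrome of NRF1, spelled by the capitals in Mrpl9 and Mrpl39 as printed here, was in 3, or 4.35%, against 2.22%, and TATAAA was in 4, or 5.80%, against 6.91%. An ETS and a YY1 match can share the letters AAG where they adjoin, and a match describes the sequence only. YY1 and ETS matches together were present in Mrps12, Mrps18a and Mrps27, and the NRF1 palindrome was present in Mrpl9, Mrpl32 and Mrpl39. The stretches that end just before the start of 4 of these genes, 2 of each kind, are shown 5′ to 3′ on the strand of the gene, with the matches inside the stretch in capitals. In Mrps18a and Mrps27 these are ETS matches (for Mrps27 on the opposite strand), and the YY1 matches lie past the start.

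Mrpl9 (chr3:94443276-94443335, plus strand): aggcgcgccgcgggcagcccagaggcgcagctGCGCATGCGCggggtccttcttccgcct

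Mrpl39 (chr16:84735245-84735384, minus strand): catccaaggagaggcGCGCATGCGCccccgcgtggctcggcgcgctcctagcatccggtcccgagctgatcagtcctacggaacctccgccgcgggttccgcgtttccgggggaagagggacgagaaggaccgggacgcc

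Mrps18a (chr17:46110944-46111003, plus strand): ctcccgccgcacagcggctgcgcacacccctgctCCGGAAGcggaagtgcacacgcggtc

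Mrps27 (chr13:99344723-99344785, plus strand): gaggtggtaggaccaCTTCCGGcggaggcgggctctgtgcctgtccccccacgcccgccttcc

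The comparison of the genotypes asked whether loss of GR in Tregs goes with a different level of the mitochondrial ribosome. No member passed the test. None of the 49 large and none of the 29 small subunit genes had an adjusted p under 0.05 by limma, and none had an unadjusted p under 0.05, against 0.0576% and 3.26% of all genes tested. The lowest unadjusted p of a member was 0.178, and every member had an adjusted p that rounds to 1.0. A p that misses the threshold does not show that the values did not differ, so the intervals are given too. The log2 differences of the large subunit genes ran from -0.17 to 0.18 with a median of -0.026, and those of the small subunit genes from -0.24 to 0.17 with a median of -0.043. Over all genes the median was -0.0014. Of the members, 57 (73.1%) had a lower and 21 a higher mean in Nr3c1-Foxp3Cre Tregs, against 50.5% lower over all genes, but this count rested on single libraries. Without control replicate 1 it was 29 lower, and without Nr3c1-Foxp3Cre replicate 1 it was 27. Without control replicate 2 it was 71, without control replicate 3 it was 53, and without Nr3c1-Foxp3Cre replicate 2 or 3 it was 63. In the fits with 29 and 27 lower, the median of the large subunit was 0.023 and 0.024, and that of the small subunit 0.051 and 0.041. In bulk libraries such as these, fewer cells of a type and less RNA per cell cannot be told apart.

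For 71 of the 78 members, or 91.0%, the 95% interval of the log2 difference lay inside -0.50 to 0.50, that is, within 1.41-fold in either direction. Among the other 1722 genes whose mean level lay in the middle range of the members (5.44 to 6.24 log2 CPM), this was so for 77.8%. That range leaves out the members of highest and lowest level, whereas the 91.0% covers all 78. The median standard error was 0.140 for the members and 0.135 for the 1722 genes. The SD of the log2 differences was 0.076 for the members and 0.14 for the 1722 genes. The widest intervals reached -0.65 for Mrpl47 and 0.52 for Mrpl2.

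**Figure D1:**
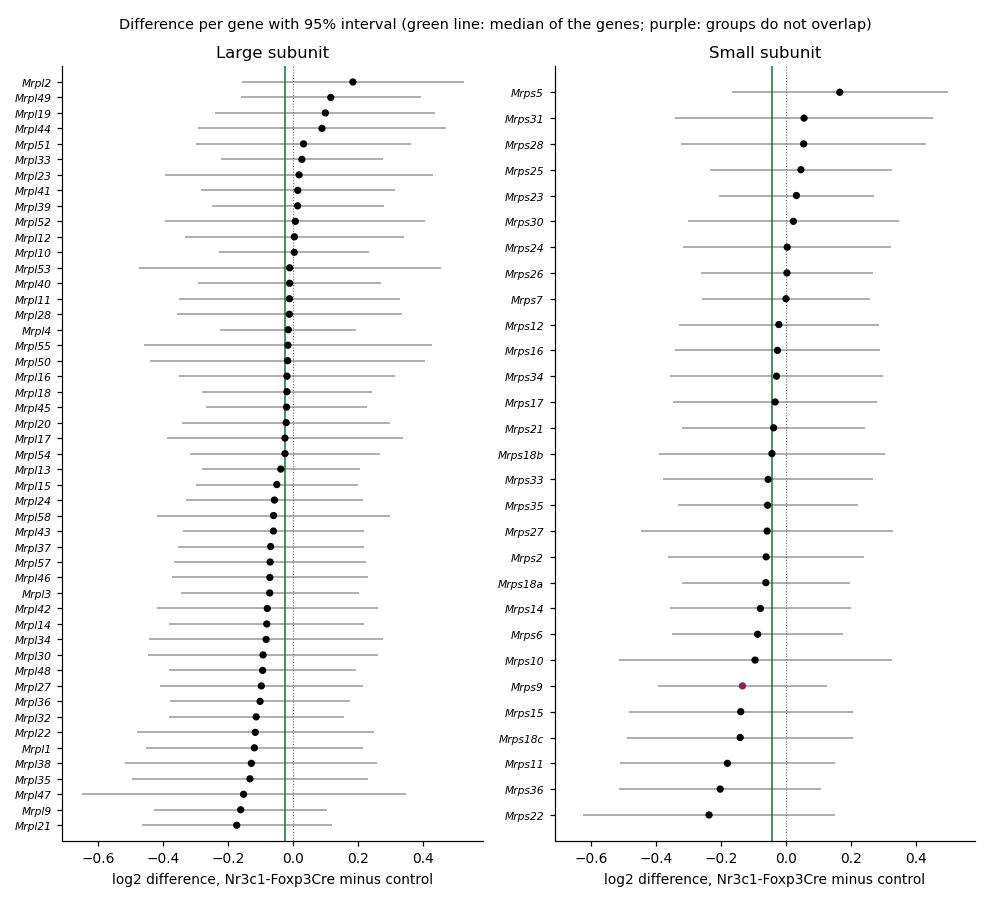
Log2 difference between Nr3c1-Foxp3Cre and control Tregs (x axis) for each mitochondrial ribosomal protein gene (y axis), with limma's 95% interval as a grey line and the median of the subunit in green. Points lie between -0.24 and 0.18, every interval includes 0, and Mrps9 (purple) is the 1 gene whose groups did not overlap.

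Mrps9 (ENSMUSG00000060679.14; chr1:42851233-42905683), homolog of a bacterial small subunit protein, was the 1 member whose groups did not overlap, against 3.73% of all genes lower without overlap, 3.69% higher and 7.41% in either direction. It was at 5.43, 5.37 and 5.45 in control libraries and at 5.29, 5.26 and 5.31 in Nr3c1-Foxp3Cre libraries. The spread within each group was narrow, and the difference was -0.13 (standard error 0.12, limma adjusted p = 1.0), or 0.912-fold on the linear scale. Among the small subunit genes Mrps22, a protein that bacterial ribosomes lack, had the lowest log2 difference. Its levels were 5.27, 4.82 and 4.96 in control libraries and 4.74, 4.60 and 4.99 in Nr3c1-Foxp3Cre libraries, so the groups overlapped (difference -0.24, standard error 0.17). Mrps36 (-0.20, standard error 0.14) and Mrps11 (-0.18, standard error 0.15) followed. At the other end were Mrps5, homolog of a bacterial protein of the decoding subunit, at 0.17 (standard error 0.15), Mrps31 at 0.056 and Mrps28 at 0.055. Single libraries moved these values. Mrps22 was at -0.11 without control replicate 1 and -0.15 without Nr3c1-Foxp3Cre replicate 2, and Mrps5 at 0.083 and 0.055 without the same libraries and at 0.032 with sample quality weights. Mrps11 and the large subunit gene Mrpl46 overlap at their starts on chromosome 7 and run apart on opposite strands. They share 173 exon bases, so that reads from this stretch cannot be assigned to either gene without strand information.

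In the large subunit, Mrpl21 (-0.17, standard error 0.13), Mrpl9 (-0.16, standard error 0.12) and Mrpl47 (-0.15, standard error 0.22) had the lowest log2 differences. Mrpl9 was at 5.53, 5.61 and 5.70 in control libraries and at 5.39, 5.54 and 5.42 in Nr3c1-Foxp3Cre libraries, and control replicate 1 fell just below Nr3c1-Foxp3Cre replicate 2. The highest differences were those of Mrpl2 (0.18, standard error 0.15), homolog of a bacterial protein next to the site of peptide bond formation, Mrpl49 (0.11, standard error 0.12) and Mrpl19 (0.098, standard error 0.15). Mrpl2 was at 6.44, 5.99 and 6.07 in control libraries and at 6.16, 6.56 and 6.33 in Nr3c1-Foxp3Cre libraries. A single control library, replicate 1, kept its groups from separating, and its difference was 0.32 without that library and 0.078 without Nr3c1-Foxp3Cre replicate 2. Mrpl47 shares exon bases with Ndufb5 and Actl6a on the opposite strand, Mrpl21 with Ighmbp2, and Mrpl19 with Gcfc2, and reads from shared stretches are uncertain in the same way. In all, 21 members share exon bases with another gene in the table.

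The proteins of the stalk, which recruits translation factors to the large subunit, had differences near 0. Mrpl12, whose protein forms the stalk, was at 7.35, 6.75 and 7.13 in control libraries and at 6.997, 7.21 and 7.04 in Nr3c1-Foxp3Cre libraries (difference 0.0029, standard error 0.15). Mrpl10, which anchors Mrpl12, was at 6.28, 6.47 and 6.42 against 6.39, 6.45 and 6.35 (difference 0.0022, standard error 0.10). Mrpl11, at the base of the stalk, had a difference of -0.012 (standard error 0.15). Their 95% intervals were -0.33 to 0.34, -0.23 to 0.23 and -0.35 to 0.33. Mrps12, the protein of the decoding site, was at 5.92 ± 0.17 (SD, n = 3 libraries) in control and 5.90 ± 0.17 (SD, n = 3) in Nr3c1-Foxp3Cre Tregs. The paralogs Mrps18a, Mrps18b and Mrps18c differed by -0.061 (standard error 0.11), -0.043 (standard error 0.15) and -0.14 (standard error 0.15). None of the 3 separated the groups.

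The libraries differed from each other, and most members moved together between them in both genotypes. The mean of the large subunit genes was 6.05, 5.76 and 5.92 in control libraries and 5.73, 5.95 and 5.93 in Nr3c1-Foxp3Cre libraries. The mean of the small subunit genes was 5.99, 5.68 and 5.85 against 5.65, 5.88 and 5.84. Both means were highest in control replicate 1 and lowest in Nr3c1-Foxp3Cre replicate 1, with control replicate 2 next to the lowest, and over all 78 genes the mean spanned 0.33 on the log2 scale, or 1.25-fold. Control replicate 1 held the highest value of 51 members, Nr3c1-Foxp3Cre replicate 1 the lowest value of 38, and control replicate 2 the lowest value of 27. Over all genes these libraries held the highest value of 19.8% and the lowest of 18.7% and 18.2%. Of the large subunit genes 44 of 49, and of the small subunit genes 27 of 29, were higher in control replicate 1 than in control replicate 2. For Nr3c1-Foxp3Cre replicate 2 over replicate 1 the counts were 41 of 49 and 26 of 29.

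**Figure D2:**
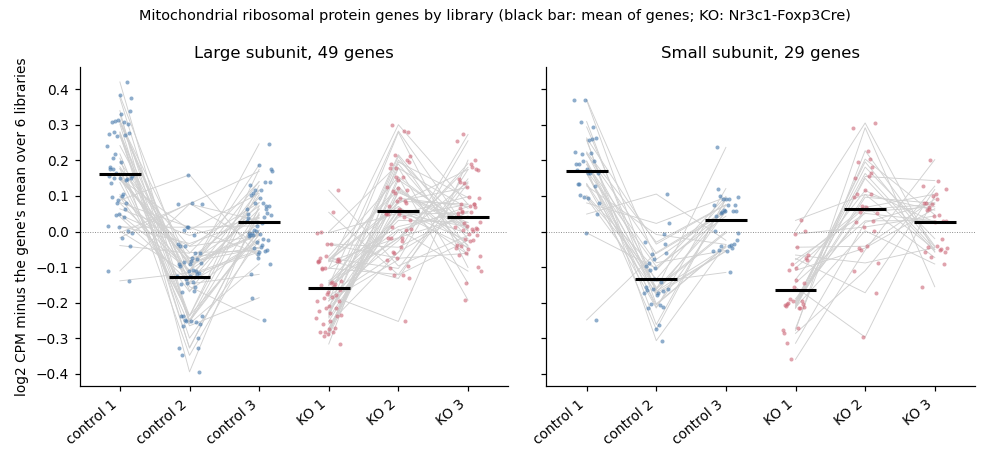
Log2 CPM of each gene minus its own mean over the 6 libraries (y axis) in each library (x axis), with large subunit genes at left and small subunit genes at right. Points and grey lines are genes (blue, control; red, Nr3c1-Foxp3Cre) and black bars their mean, which is highest in control replicate 1 and low in control replicate 2 and Nr3c1-Foxp3Cre replicate 1 in both panels.

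The subunits moved in parallel. The mean of the large subunit genes exceeded that of the small subunit genes by 0.067, 0.079 and 0.069 in control libraries and by 0.080, 0.070 and 0.088 in Nr3c1-Foxp3Cre libraries, a span of 0.021 that is small beside the span of 0.33 of the level itself. The same held for the 76 genes of the cytosolic ribosome, whose large minus small difference spanned 0.031 and whose mean level spanned 0.15. Centering each library on the mean of the members lowered the median SD of a member within groups from 0.17 to 0.11 and made it smaller for 65 of the 78 genes. Centering genes on their own mean lowers their summed variance in any data, so this drop alone is no check of a shared movement. Examples chosen after their values were seen differ in the direction of the change. For Mrpl57 the SD within groups went from 0.12 to 0.023 and for Mrpl1 from 0.17 to 0.036, whereas for Mrps9 it went from 0.031 to 0.12 and for Mrpl10 from 0.077 to 0.19. Mrpl10 was at its lowest, 6.28, in the library where most members were at their highest. Mrpl4, which spanned 0.12 over the 6 libraries, was the steadiest member, and Mrpl53, which spanned 0.73, the least steady.

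The proteins of this ribosome that carry other names had values for 5 genes. These are Dap3, a GTP-binding protein of the small subunit, Ptcd3, Aurkaip1, Chchd1 and the large subunit protein Gadd45gip1. Their mean was 6.46, 6.12 and 6.33 in control libraries and 6.20, 6.36 and 6.38 in Nr3c1-Foxp3Cre libraries, lowest in control replicate 2. All 5 were higher in control replicate 1 than in control replicate 2, 4 of 5 were higher in it than in control replicate 3, and 4 of 5 were higher in Nr3c1-Foxp3Cre replicates 2 and 3 than in replicate 1. Dap3 had another order, at 6.59, 6.57 and 6.73 in control libraries and 6.75, 6.52 and 6.78 in Nr3c1-Foxp3Cre libraries. Between the genotypes Dap3 differed by 0.051 (standard error 0.11) and Gadd45gip1 by -0.061 (standard error 0.16). RNAs encoded by mtDNA had another order. The mean of the 13 that had values, among them the ribosomal RNAs mt-Rnr1 and mt-Rnr2, was 6.79, 7.21 and 6.75 in control libraries and 7.17, 7.01 and 6.57 in Nr3c1-Foxp3Cre libraries. All 13 were higher in control replicate 2 than in control replicate 1, and all 13 were higher in Nr3c1-Foxp3Cre replicate 1 than in replicate 3. Thus the libraries with the lowest levels of the protein genes had the highest levels of the mtDNA RNAs.

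Markers of cell types moved across the libraries as well. The mean of the 7 melanoma markers was 8.68, 7.30 and 8.34 in control libraries and 8.16, 8.63 and 7.38 in Nr3c1-Foxp3Cre libraries, and that of the 7 Treg markers was 7.79, 8.40 and 8.09 against 8.32, 7.86 and 8.10. Control replicate 1 was highest for the melanoma markers and lowest for the Treg markers, and control replicate 2 the reverse. The mean of the members was 6.03, 5.73 and 5.89 in control libraries and 5.70, 5.92 and 5.90 in Nr3c1-Foxp3Cre libraries. Control replicate 1 and Nr3c1-Foxp3Cre replicate 2 were highest for the members and lowest for the Treg markers. Control replicate 2 and Nr3c1-Foxp3Cre replicate 1 were lowest for the members and highest for the Treg markers. The part of the Treg share in this order was not tested. The members did not follow the melanoma markers in 2 libraries. Nr3c1-Foxp3Cre replicate 3 had melanoma markers at 7.38 and members at a mean of 5.90, and Nr3c1-Foxp3Cre replicate 1 had melanoma markers at 8.16 and the lowest mean of the members, 5.70. With the melanoma mean as a covariate the median log2 difference was -0.030 for the large and -0.034 for the small subunit genes, and 0 members were called. The part of RNA from tumor cells or other admixed cells in the shared movement was not tested. The mean of the 7 macrophage markers was 5.22, 4.54 and 4.998 against 4.24, 5.13 and 4.32, with overlapping groups. Like the mean of the members, it was highest in control replicate 1 and lowest in Nr3c1-Foxp3Cre replicate 1. In Nr3c1-Foxp3Cre replicate 3 the macrophage markers were next to the lowest, at 4.32, while the members were at 5.90.

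**Figure D3:**
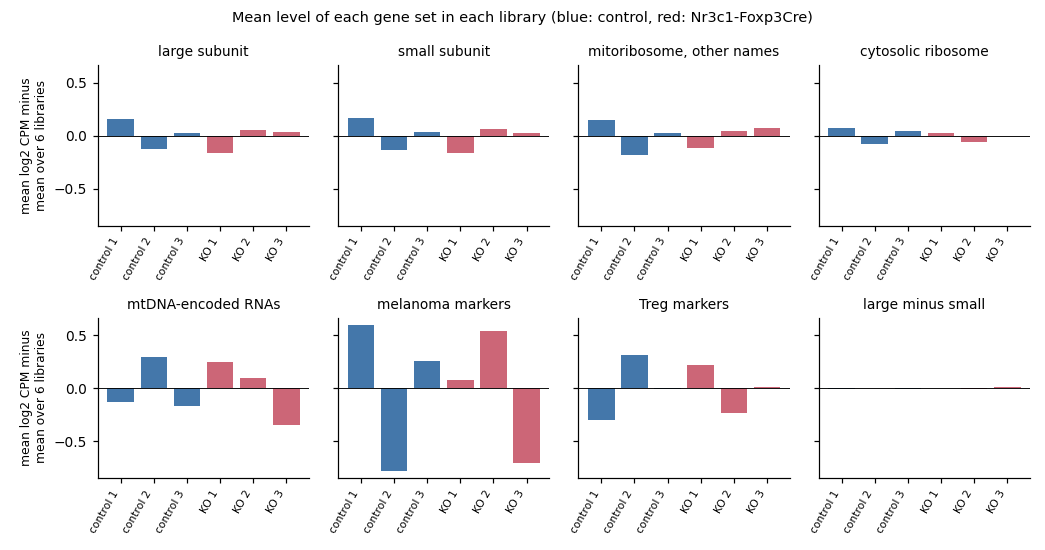
Mean log2 CPM of each gene set minus its mean over the 6 libraries (y axis) by library (x axis; blue, control; red, KO, for Nr3c1-Foxp3Cre). Both subunits share their pattern, the mitochondrial ribosomal proteins with other names are lowest in control replicate 2, the mtDNA RNAs are highest where these are low, and the bars for large minus small are barely visible because they span 0.021.

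Other genes of mitochondrial translation showed few differences. Of 26 factors that assemble the mitochondrial ribosome, 13 were higher and 13 lower, none had an unadjusted p under 0.05 by limma, and the median log2 difference was -0.0022. Groups were without overlap for 2 in the higher and 1 in the lower direction, against 3.69% and 3.73% of all genes. Ddx28, an RNA helicase needed for the large subunit, was at 5.20, 5.26 and 4.999 in control libraries and at 4.85, 4.27 and 5.01 in Nr3c1-Foxp3Cre libraries (difference -0.45, standard error 0.20, limma adjusted p = 1.0). Nr3c1-Foxp3Cre replicate 3 overlapped the control group by a narrow margin. Mterf4, which guides an RNA methyltransferase to the large subunit, had groups without overlap and a difference of -0.29 (standard error 0.19). Of 15 translation factors 8 were higher and 7 lower, and none had an unadjusted p under 0.05. The lowest p belonged to the release factor Mtrf1l (0.37, standard error 0.21) and the initiation factor Mtif3 (0.18, standard error 0.14).

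Of the 17 mitochondrial tRNA synthetases, 1 in each direction had an unadjusted p under 0.05, against 1.61% of all genes higher and 1.65% lower, and 0 had an adjusted p under 0.05. Fars2, which charges the phenylalanine tRNA, was at 5.30, 5.49 and 5.31 in control libraries and at 4.999, 4.993 and 5.20 in Nr3c1-Foxp3Cre libraries (difference -0.30, standard error 0.13, limma adjusted p = 1.0). Iars2, which charges the isoleucine tRNA, was at 6.42, 6.25 and 6.26 against 6.63, 6.51 and 6.51 (difference 0.24, standard error 0.10, limma adjusted p = 1.0). Each separated the groups, in opposite directions. Of the 17 synthetases, 1 was higher and 2 were lower without overlap, against 3.69% and 3.73% of all genes. Sars2, the partner of Mrps12, was at 4.89, 4.75 and 4.80 against 4.45, 4.62 and 4.70 and also separated the groups (difference -0.23, standard error 0.15), while Mrps12 did not.

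Among the 13 mtDNA RNAs, mt-Co3, a subunit of cytochrome c oxidase, was the 1 with an unadjusted p under 0.05 by limma, against 3.26% of all genes. It was also the 1 of the 13 without overlap between groups, against 3.69% of all genes higher and 3.73% lower. It was at 7.03, 7.35 and 7.08 in control libraries and at 7.45, 7.69 and 7.38 in Nr3c1-Foxp3Cre libraries, without overlap (difference 0.36, standard error 0.12, limma adjusted p = 1.0). For mt-Nd2, a subunit of NADH dehydrogenase, the difference was -0.21 (standard error 0.20). The RNAs of the mitochondrial ribosome itself had differences of -0.24 (mt-Rnr1, standard error 0.22) and -0.19 (mt-Rnr2, standard error 0.19). Of 10 genes that copy or transcribe mtDNA none had an unadjusted p under 0.05, with Tfb2m, an initiation factor of mitochondrial transcription, at 0.27 (standard error 0.18) and Twnk, the replicative helicase, at -0.29 (standard error 0.23). Twnk shares 507 exon bases with Mrpl43 on the opposite strand.

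**Figure D4:**
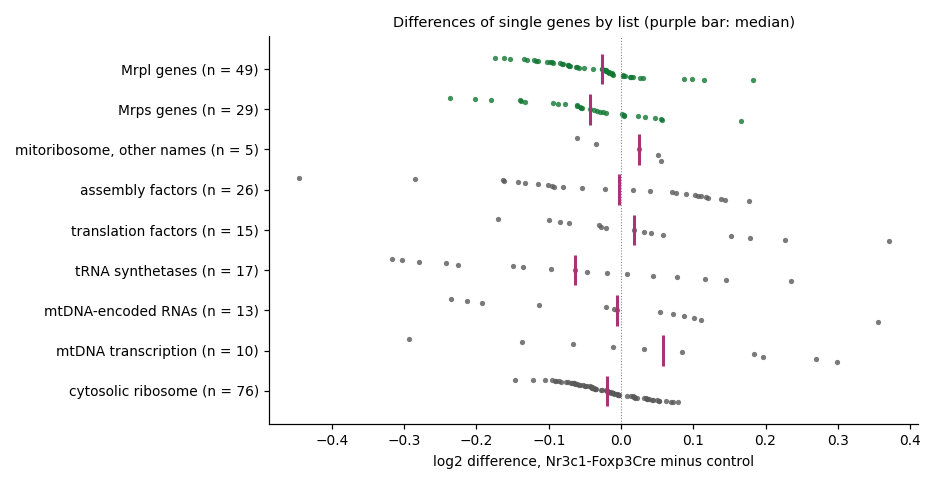
Log2 difference between Nr3c1-Foxp3Cre and control Tregs (x axis) for single genes (points) in the mitochondrial ribosome, the other lists of mitochondrial translation and the cytosolic ribosome (y axis), with the median of each list as a purple bar. All 78 members lie between -0.24 and 0.18, and the 76 cytosolic genes between -0.15 and 0.079.

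The genes of the cytosolic ribosome, the comparison for the members, also gave no call. Of 76 genes 54 had a lower and 22 a higher mean in Nr3c1-Foxp3Cre Tregs, with log2 differences from -0.15 to 0.079 and a median of -0.020, and none had an unadjusted p under 0.05. Its mean was 7.44, 7.29 and 7.41 in control libraries and 7.40, 7.31 and 7.37 in Nr3c1-Foxp3Cre libraries. Nr3c1-Foxp3Cre replicate 1, which was lowest for the mitochondrial ribosome, was above both other Nr3c1-Foxp3Cre libraries for the cytosolic ribosome.

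Levels of single members were compared per kilobase of the longest APPRIS principal transcript, averaged over the 6 libraries. They are levels of whole libraries, which also held RNA of melanoma markers, and the part of tumor cells in them was not tested. The median was 5.38 log2 CPM per kilobase for the large and 5.28 for the small subunit genes, against 7.64 for the cytosolic ribosome. The middle 50% of the members spanned 2.89-fold in level per kilobase, and all of them 45.3-fold. In the large subunit Mrpl42 (7.92), Mrpl33 (7.64) and Mrpl18 (7.23) were highest per kilobase, and Mrpl47 (2.42), Mrpl1 (3.42) and Mrpl11 (3.50) were lowest. In the small subunit Mrps21 (7.10), Mrps33 (6.78) and Mrps18c (6.70) were highest per kilobase, and Mrps5 (3.23), Mrps35 (3.38) and Mrps17 (3.52) were lowest. The order depended on the transcript length used. With all exons of a gene merged, Mrpl42 ranked 16 and Mrpl33 ranked 39 of the 49 large subunit genes, at 5.45 and 3.70, whereas Mrpl18 ranked first, Mrpl47 last and the 3 highest small subunit genes kept their ranks. With merged exons the order of the medians was also turned, with 4.59 for the large and 4.68 for the small subunit genes. Neighbors in the order were not always apart. Mrpl42 ran from 7.63 to 8.23 per kilobase and overlapped Mrpl33, which ran from 7.47 to 7.76, while Mrpl47 ran from 2.16 to 2.84 and lay below the lowest value of Mrpl1, 3.18.

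**Figure D5:**
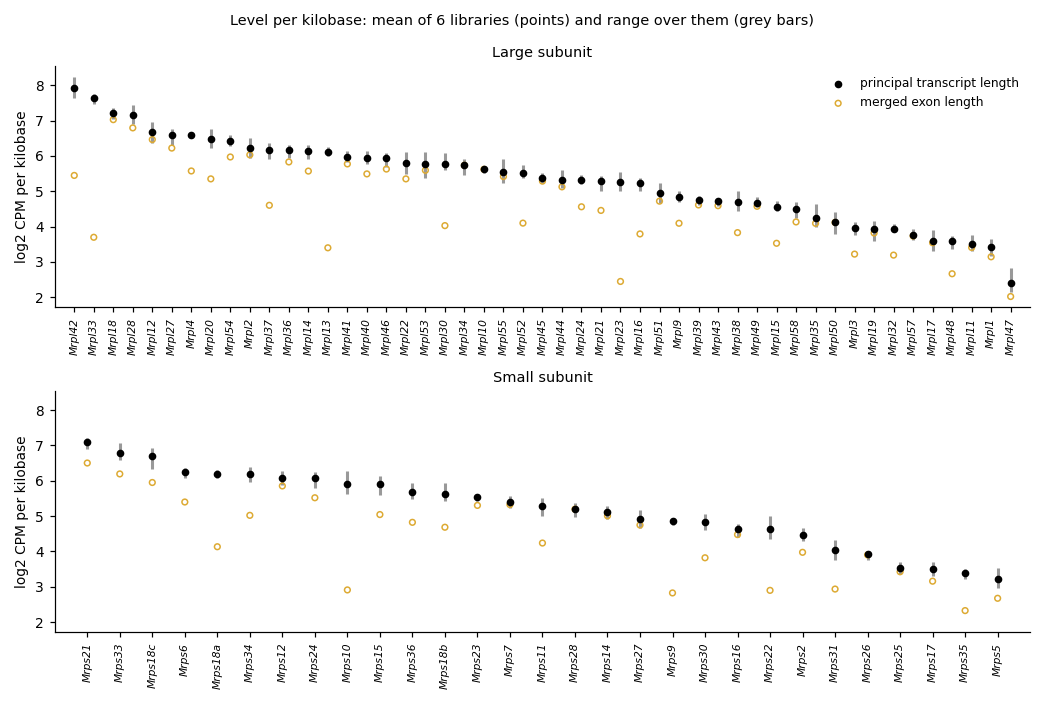
Level in log2 CPM per kilobase (y axis) of each member (x axis) in the order of its mean over 6 libraries, with black points for the principal transcript length, grey bars for the range over libraries and open yellow points for merged exons. Genes with an open point far under the black point, such as Mrpl33, change rank with the transcript length used.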

How the data were processed

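RNA-Seq libraries of sorted tumor Tregs were compared, 3 control and 3 Nr3c1-Foxp3Cre, grouped by the sample labels. The authors removed adapters (Cutadapt), mapped reads to mm10 (STAR), estimated expression with RSEM and GENCODE M21, dropped genes of low CPM and then applied quantile normalization. The deposited values are log2 CPM after that step, so depth is unknown and voom weights could not be recomputed. Quantile normalization gives all libraries the same distribution, and a movement of a gene set is therefore relative to the other genes. The whole table of 12153 genes entered limma (version 3.58.1, R 4.3.3) with genotype as the term and a mean-variance trend in eBayes, and p-values were adjusted by Benjamini-Hochberg over the whole table (threshold 0.05). The fit was tested on simulated data with independent noise for each gene and planted changes larger than the difference of any member. That test therefore does not cover differences as small as those of the members, or genes that move together. Positions and lengths came from GENCODE M21, where all 78 members matched by identifier, and promoters from RefSeq. A strand setting is not given in the sources used here. Mrpl23-ps1, a pseudogene left out by the rule, had a mean of 5.12 in control libraries beside 4.73 for Mrpl23, with which it may share reads.

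Members and lists were chosen with earlier results of these data known. Named members were those without overlap between groups, the 3 highest and 3 lowest log2 differences and levels per kilobase in each subunit, the Mrps18 paralogs, the stalk proteins, Mrps12, and in each other list of mitochondrial translation the 2 genes with the lowest p. The mitochondrial ribosomal RNAs, Sars2, and the steadiest and least steady members were named after their values were seen. Alternatives were vooma weights, weights by sample quality, eBayes made robust or fitted with no trend, removal of genes with a mean under log2 1, raising negative values to 0, cyclic loess, median centering on genes with a mean of at least 5, a block for the replicate number, the melanoma marker mean as a covariate, an unadjusted threshold and leaving out each library. Centering on the 78 members, the structural assignment of subunits and merged exon lengths were chosen after seeing the data.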

Additional observations from a re-analysis of the deposited data

How the results depend on the processing

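No member was called in any fit. The lowest adjusted p of a member was 0.398, with sample quality weights, where 2 members, Mrpl9 and Mrps15, had an unadjusted p under 0.05, against 11.3% of all genes in that fit. When the replicate number was added as a block, 0 genes were called and 275 genes had an unadjusted p under 0.05 by limma. Every number occurs in both groups, so by design the block cannot change a log2 difference. The medians of -0.026 for the large and -0.043 for the small subunit are therefore no check of the result. Correlations of deviations from the group means between libraries with the same number were -0.12, -0.33 and -0.025 across genes. Across the members they were -0.46, -0.34 and 0.060. No positive link by number was seen over all genes, but with 3 libraries per group these values cannot decide whether the libraries are paired. Across the fits that each left out a library the median ran from -0.12 to 0.024 for the large and from -0.13 to 0.051 for the small subunit. The calls over all genes at an adjusted p of 0.05 were 1 higher and 6 lower. The counts were 0 and 0 without a trend, 2 and 6 with vooma weights, 7 and 12 with sample quality weights, 4 and 14 with the melanoma covariate, 0 and 0 when centered on the members, 196 and 200 at an unadjusted p under 0.05, and 0 to 3 and 0 to 5 without a replicate. The cause was not tested.

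Tsc22d3 had an adjusted p above 0.05 without a trend (0.221), with the block (0.137), when centered on the members (0.190) and without control replicate 3 (0.0712) or Nr3c1-Foxp3Cre replicate 1 (0.0639), 2 (0.140) or 3 (0.154). Nr3c1 had an adjusted p of 0.00415 with the melanoma covariate. Small differences changed sign. With sample quality weights they were 0.0028 for Mrps18b, -0.049 for Mrpl12, -0.027 for Mrpl10 and -0.019 for Dap3, and centered on the members 1.42e-05 for Mrps18b, 0.030 for Mrpl11 and 0.021 for Mrps12. Without a replicate they ran from -0.32 to 0.018 for Mrpl47, -0.052 to 0.23 for Mrpl19, -0.034 to 0.18 for Mrps28, -0.083 to 0.20 for Mrps31, -0.15 to 0.10 for Mrps18b, -0.28 to 0.0048 for Mrps18c, -0.16 to 0.14 for Mrpl12, -0.053 to 0.042 for Mrpl10, -0.14 to 0.082 for Mrpl11, -0.11 to 0.077 for Mrps12, -0.17 to 0.062 for Gadd45gip1 and -0.33 to 0.0025 for mt-Nd2. With Mrps18a and Mrps30 counted as large subunit and Mrps36 left out, the medians were -0.026 and -0.040. Without a replicate, some differences that kept their sign moved by over 1.5 times from their value in the fit of all libraries. Among small subunit names they ran from -0.34 to -0.11 for Mrps22, -0.27 to -0.12 for Mrps36, -0.29 to -0.081 for Mrps11, 0.055 to 0.24 for Mrps5 and -0.13 to -0.022 for Mrps18a. Among large subunit names they ran from 0.078 to 0.32 for Mrpl2, -0.25 to -0.088 for Mrpl21 and 0.056 to 0.18 for Mrpl49. In the other lists they ran from 0.00014 to 0.13 for Dap3, -0.60 to -0.23 for Ddx28, 0.099 to 0.25 for Mtif3, 0.16 to 0.40 for Tfb2m and -0.48 to -0.085 for Twnk. Smaller moves of differences that kept their sign are not listed. Depth is unknown, so its limit on low genes cannot be given.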
